A study of Drosophila melanogaster with 52 samples.

Results

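The embryos described here came from Drosophila melanogaster females mutant for both genes that encode the histone variant H3.3, His3.3A and His3.3B, and were collected 0.5 to 1 h after egg laying. The comparison was chosen by the labels alone: 2 libraries of H3.3 maternal mutant embryos against 2 libraries of the wild type collected for the H3.3 mutant at the same stage, 4 of the 52 libraries of the series. The mutant is labelled M-Z+, where M- names the loss of H3.3 in the mother and Z+ a zygote with functional copies. His3.3B lies on the X chromosome, and sons receive their only X from the mother. Sons of mothers homozygous for the mutant allele would thus hold no functional His3.3B copy, whatever the Z+ label. This was not tested in the libraries. Double mutants of the CRISPR alleles rarely survive, so the mothers were the few adult escapers, and the wild type of the study was the w1118 strain. Each replicate was a pool of 50 embryos selected by hand, RNA was depleted of ribosomal RNA, and the values are counts per gene.

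At this stage the nuclei divide rapidly in a common cytoplasm and the genome is almost silent. The RNA of the embryo was loaded into the egg by the mother; it is cleared while the zygotic genome becomes active, in a minor wave followed by a major one. H3.3 differs from canonical H3 in that it can enter chromatin outside of DNA replication, among others through the chaperone HIRA, which also loads H3.3 on the paternal genome after fertilization. The question addressed was which gene classes, maternal and zygotic, differ in embryos whose mothers lacked functional H3.3 genes.

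The 4 libraries held 28510753 to 31452839 counts. Levels are given as CPM, counts scaled to the size of the library, and 3 counts correspond to 0.0954 to 0.105 CPM. Over genes between 1 and 50 CPM the SD of the log2 ratio of replicates was 0.232 in the mutant pair and 0.242 in the wild-type pair. The p-values measure only the spread between libraries of the same group. They leave out the spread between wild types of different experiments, which was larger for the muscle and yolk genes below. The maternal RNAs bcd, nos, osk, gnu, png and smg were at 62.6 CPM or more in all 4 libraries, and none of them passed the threshold. Markers of other tissues differed between the mutant and its own wild type. The summed level of 9 genes of differentiated muscle, which an embryo of this age should lack, was 23.7 and 23.1 CPM in the mutant and 99.3 and 96.9 CPM in the wild type, and 7 of 9 were called lower. The summed level of 23 yolk and eggshell genes of ovarian follicle cells was 32.7 and 33.9 CPM in the mutant and 9.23 and 10.4 CPM in the wild type, and 18 of 23 were called higher. Of 6 hemocyte markers 3 were called lower, of 7 neuronal markers 2 were called higher and 3 lower, and 7 digestive enzymes of the adult gut summed to at most 0.214 CPM in each library. The wild-type collections differed in these sums too. On a common scale of all 22 libraries of this stage, muscle genes summed to 22.7 and 22.4 CPM in the mutant. Over the 10 wild-type libraries they summed to 3.44 to 340.8 CPM. The 21 yolk and eggshell genes with enough counts on that scale summed to 31.1 and 32.6 CPM against 7.65 to 107.3 CPM. No muscle, yolk, eggshell or hemocyte gene lay outside the 10 wild-type libraries in both mutant libraries, while 2 neuronal markers lay above all 10. The sum of the 6 neuronal markers on that scale was 23.8 and 25.8 CPM in the mutant, above the 2.65 to 10.02 CPM of the 10 wild-type libraries. The markers did not move together: the median log2 fold change of the 7 against their own wild type was -1.29. The part of older embryos or of maternal tissue in the results was not tested. In these bulk samples, fewer cells of a type and less RNA per cell cannot be told apart.

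RNA of both targeted genes was lower in the mutant, and neither was absent. His3.3A (chr2L:5055058-5056149, dm6) had 86.3 and 80.4 CPM in the mutant libraries and 178 and 166 CPM in the wild-type libraries, a log2 fold change of -1.05 ± 0.06 (SE; edgeR quasi-likelihood test, adjusted p = 6.99e-10). His3.3B (chrX:9152523-9156669) had 252 and 246 CPM against 683 and 708 CPM, a log2 fold change of -1.48 ± 0.05 (adjusted p = 2.08e-12). The groups did not overlap for either gene. On a per-length scale the mean level of His3.3B was 224 against 639 TPM (transcripts scaled to length and library size) and that of His3.3A 161 against 340 TPM, so a sizeable part of the wild-type RNA level remained in embryos labelled mutant. For both genes, both mutant libraries lay below each of the 20 other 0.5 to 1 h libraries of the series. The fold of His3.3A sat at the limit of the call (absolute log2 fold change above 1): it was -0.99 with library totals in place of normalization factors, and between -0.68 and -0.94 against the wild types of the HIRA, overexpression and S111A S115A experiments. It was -0.997 without mutant replicate 2 and -0.995 without wild-type replicate 1, just short of the limit in each.

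Genes whose products handle H3.3 were mostly close to wild type. Of 13 genes for H3.3 deposition and histone chaperones, 0 were called in either direction (adjusted p under 0.05 and absolute log2 fold change above 1), while 1 was higher and 3 were lower by adjusted p alone. Hira had 171 and 155 CPM in the mutant and 165 and 177 CPM in the wild type, and the groups overlapped (log2 fold change -0.07 ± 0.06, adjusted p = 0.465). Chd1, a chromatin remodeler that acts on the male pronucleus, had 467 and 513 CPM against 763 and 751 CPM, a log2 fold change of -0.63 ± 0.06 (adjusted p = 2.34e-07) inside the fold limit. DLP, a gene related to mammalian Daxx, was at 515 and 502 CPM against 536 and 511 CPM and did not pass the test (adjusted p = 0.69). Of 11 other histone genes and processing factors, 0 were called and 0 had an adjusted p under 0.05. The variant His2Av was at 558 and 568 CPM against 539 and 507 CPM (adjusted p = 0.2). Copies of the repeated histone genes were not in this list, and some were called higher. These were 11 of 12 tested histone H1 copies and the H2B gene His2B:CG33868, at 82.9 and 86.2 CPM against 18.0 and 19.1 CPM (log2 fold change 2.19, adjusted p = 7.52e-12). Counts of such near-identical genes are uncertain.

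Over 10644 genes with enough counts in the 12 libraries of the H3.3 experiment, 660 were called higher in the mutant (6.20%) and 616 lower (5.79%). Mutant and wild-type libraries did not overlap for 65.8% of the genes. In at least 1 of the groups, 2045 of the tested genes were at or under 3 counts, among them 174 of the higher and 139 of the lower ones, and for these a fitted fold change is no measure of size. Genes were then sorted by their behaviour in another wild-type time course of the series, that of the HIRA experiment, over its 3 stages.

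**Figure D1:**
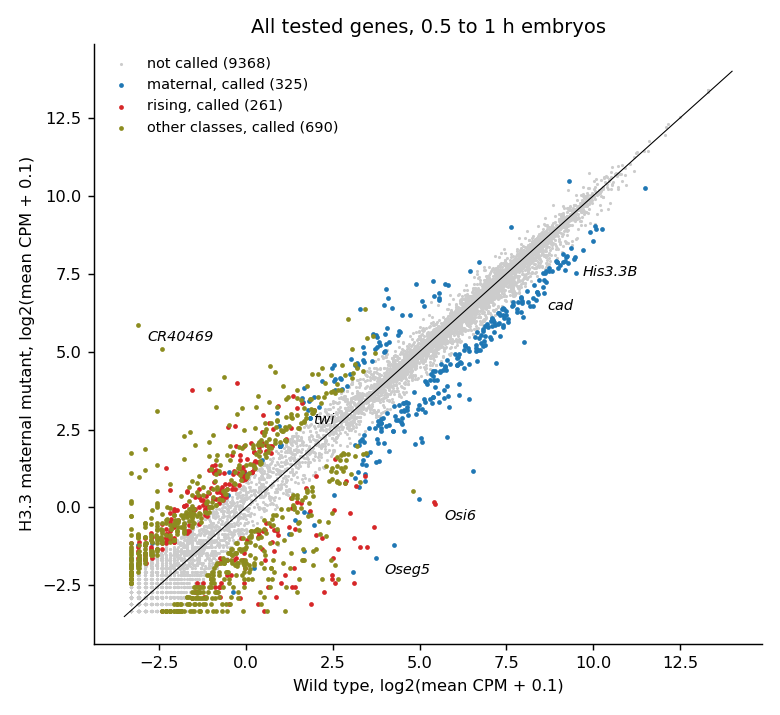
Mean level of each tested gene in wild-type (x axis) and H3.3 maternal mutant embryos (y axis), both as log2(CPM + 0.1), with called genes coloured by class and the line of equality in black. The 325 called maternal genes lie mostly below the line among abundant RNAs, and the 261 called rising genes lie on both sides among scarce RNAs.

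Maternal and zygotic classes differed in their share of calls. Rising genes (under 2 CPM at 0.5 to 1 h and at least 5 CPM at 2.5 to 3 h in that time course, 632 tested) showed a median change of 0.59 on the log2 scale, and 174 were called higher and 87 lower, that is 27.5% and 13.8% against 6.20% and 5.79% of all genes. Early rising genes, whose gain had begun by 1 to 1.5 h, were mostly higher where called: 113 of 295 higher, 21 lower, median 0.84. Late rising genes were split, with 61 of 337 higher, 66 lower and a median of 0.28. With the 100 rising genes that had a group at or under 3 counts set to that bound, the median of the rising genes was 0.51, and over the 4 pairings of single mutant and wild-type libraries it ran from 0.46 to 0.51. The median over all tested genes was 0.0015. These values depended on the control. Against the wild types of the other experiments the median of the rising genes ran from 0.19 (HIRA) to 1.87 (dPCIF1). Of the same genes 374 were higher and 8 lower against the dPCIF1 control, 39 were lower against the S111A S115A control and 16 against the 4 other controls together. Of the 369 genes that rose in both wild-type time courses 9 were called lower. The second course requires under 2 CPM in the control libraries of this comparison, so few lower calls are in part built in.

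The bulk of the maternal RNAs kept a level near wild type. Falling maternal genes (at least 10 CPM at the start and a loss by 2.5 to 3 h, 2347 tested) showed a median change of -0.05 on the log2 scale, with 14 called higher and 90 lower, or 0.597% and 3.83%. Stable maternal genes (1770 tested) had a median of -0.01, with 12 higher and 60 lower, or 0.678% and 3.39%. These shares were below those of all genes at this fold limit. By adjusted p alone 640 falling genes (27.3%) and 369 stable genes (20.8%) were lower, against 18.2% of all genes, and 233 (9.93%) and 213 (12%) were higher, against 15.8%. Both mutant libraries lay below all 10 wild-type libraries of this stage for 25.9% of the falling and 17.2% of the stable genes, against 16.3% of all. Against the dPCIF1 control 172 falling and 117 stable genes were called lower. Among maternal genes that gain RNA later (537 tested) 49 were higher and 32 lower, and among the remaining maternal genes (1600 tested) 13 were higher and 55 lower. With library totals in place of normalization factors the medians of falling and stable genes were 0.0058 and 0.042, so no direction is given to either class as a whole.

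**Figure D2:**
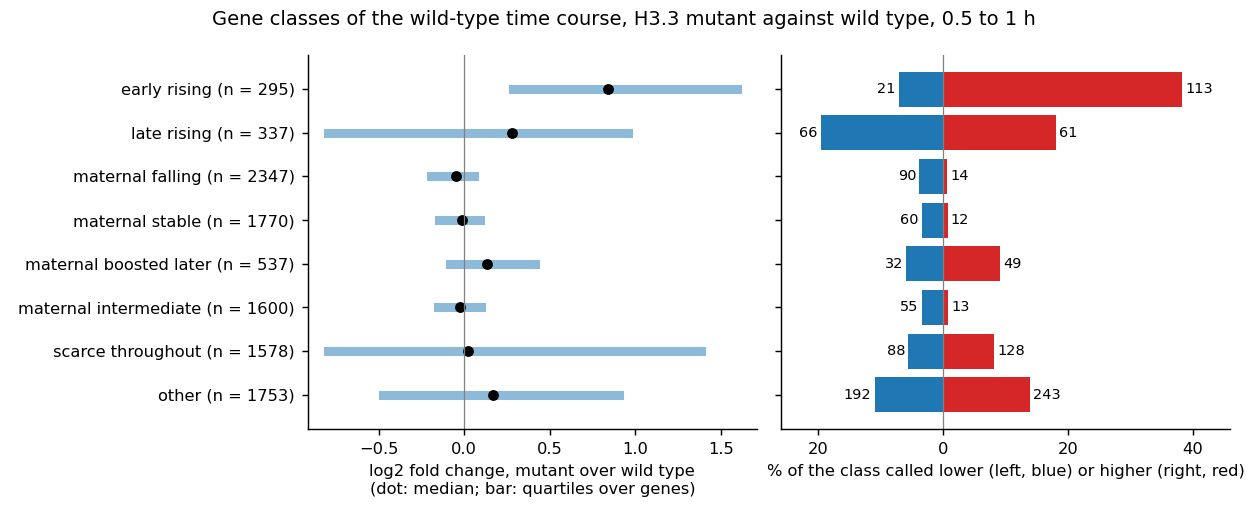
Left, median (dot) and quartiles (bar) of the log2 fold change of mutant over wild type for each class of the wild-type time course. Right, percentage of each class called lower (to the left) and higher (to the right), with the number of genes at the bar ends. Early rising genes had 113 called higher and 21 lower, and falling maternal genes 14 higher and 90 lower.

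Where maternal RNAs were called, most were lower in the mutant: 237 of 6254, against 88 higher. For 221 of the 237, both mutant libraries lay below all 10 wild-type libraries of 0.5 to 1 h embryos in the series (16.3% of all genes did), and for 180 they lay below all 20 other libraries of that stage (9.10% of all genes did). The 237 were chosen by low levels in these mutant libraries against a wild type that is among the 10. Shares above those of all genes are thus in part built in. All lower genes of the falling, stable and intermediate classes (90, 60 and 55) were below the 10 wild-type libraries, and the 16 that were not belonged to the genes boosted later, the muscle genes Mhc, Act57B, Mlc1, Tm2 and up among them. The 20 libraries are 10 of wild type and 10 of 5 other mutant or transgenic groups: HIRA mutant, dPCIF1 trap, HIRA overexpression, HIRA and dPCIF1 overexpression, and dPCIF1 with S111A and S115A. Levels across experiments were set on a common scale over 22 libraries. Library format differed between experiments: gene length minus effective length was about 98.6 bases in those of HIRA, overexpression and S111A S115A, and 222 to 231 bases in the 4 libraries compared.

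Regulators of the zygotic genome and of the body plan were among the lower maternal RNAs. vfl, which encodes the pioneer factor Zelda, had 249 and 280.0 CPM in the mutant and 610.2 and 582 CPM in the wild type (log2 fold change -1.17 ± 0.07, adjusted p = 5.39e-10). In the 10 wild-type libraries vfl ranged from 513 to 700.5 CPM and in the 10 libraries of other genotypes from 539 to 1005 CPM, so both mutant libraries lay below all of them. cad, a homeobox gene whose maternal RNA is translated in the posterior, had 118 and 112 CPM against 347 and 336 CPM (log2 fold change -1.57 ± 0.07, adjusted p = 2.16e-11), and 296 to 333 CPM in the 10 wild-type libraries. Of 17 maternal axis genes cad was the only member called. nos, the posterior determinant, was at 875 and 835 CPM against 911 and 924 CPM (adjusted p = 0.12), and bcd, the anterior determinant, at 282 and 281 CPM against 281 and 259 CPM (adjusted p = 0.446); neither passed the test.

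Lists of post-transcriptional and germline regulators each had 1 called member or 0. pum, which encodes the RNA-binding repressor Pumilio, had 201 and 184 CPM against 453 and 444 CPM (log2 fold change -1.22 ± 0.06, adjusted p = 1.31e-10) and was the only called gene of 14 in maternal RNA repression and decay. smg, a main factor of maternal RNA clearance, was at 3496 and 3407 CPM against 3181 and 3054 CPM and did not pass (adjusted p = 0.0605). ovo, a germline transcription factor, had 286 and 275 CPM against 578 and 554 CPM (log2 fold change -1.01 ± 0.05, adjusted p = 1.13e-10), the only called gene of 11 in the germ plasm list, and its log2 fold change was -0.96 with library totals and -0.98 without mutant replicate 2 or wild-type replicate 1. osk, which organizes the germ plasm, was at 1711 and 1598 CPM against 1758 and 1739 CPM (adjusted p = 0.28). vas, a germline helicase, was at 257 and 364 CPM against 433 and 431 CPM, lower by adjusted p (0.0025) and inside the fold limit (-0.48). Of 8 egg activation and PNG kinase genes and of 15 cleavage cycle genes 0 were called; by adjusted p alone 2 were higher and 1 lower in the former, and 4 higher and 0 lower in the latter.

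Of the 6 early transcription regulators, vfl was lower and grh, a Grainy head family activator, was higher, at 14.04 and 13.3 CPM against 6.88 and 6.29 CPM (log2 fold change 1.05 ± 0.10, adjusted p = 1.97e-07; 0.99 without wild-type replicate 2). Trl, which encodes the GAGA factor, was at 193 and 214 CPM against 201 and 199 CPM, and the groups overlapped (adjusted p = 0.879). Clamp, which binds GA repeats too, was at 252 and 252 CPM against 286 and 274 CPM (log2 fold change -0.15 ± 0.05, adjusted p = 0.0309), inside the fold limit.

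The most abundant of the lower maternal RNAs were chosen after their values were seen. yl, the yolk protein receptor of the oocyte, had 1212 and 1209.9 CPM against 2848 and 2946 CPM (log2 fold change -1.26). e(y)3, a subunit of a SWI/SNF remodeling complex, had 485 and 485 CPM against 1253 and 1199 CPM (-1.34). nej, a CBP acetyltransferase, had 435 and 549 CPM against 1101 and 1079.7 CPM (-1.15, and -0.99 without mutant replicate 1). osa, another SWI/SNF subunit, had 373 and 373 CPM against 1051 and 987 CPM (-1.45), with 844 to 1006 CPM over the 10 wild-type libraries. Both mutant libraries lay below all 20 others for each of these 4 genes. Hsp60, the mitochondrial chaperonin, had 262 and 263 CPM against 703 and 716 CPM (-1.43) and nocte had 156 and 214 CPM against 762 and 699 CPM (-1.98); blw, tyf and lig, with changes of -1.02, -1.09 and -1.43 on the log2 scale, complete the 10 with His3.3B, and blw was at -0.95 without mutant replicate 2 and -0.99 without wild-type replicate 2.

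**Figure D3:**
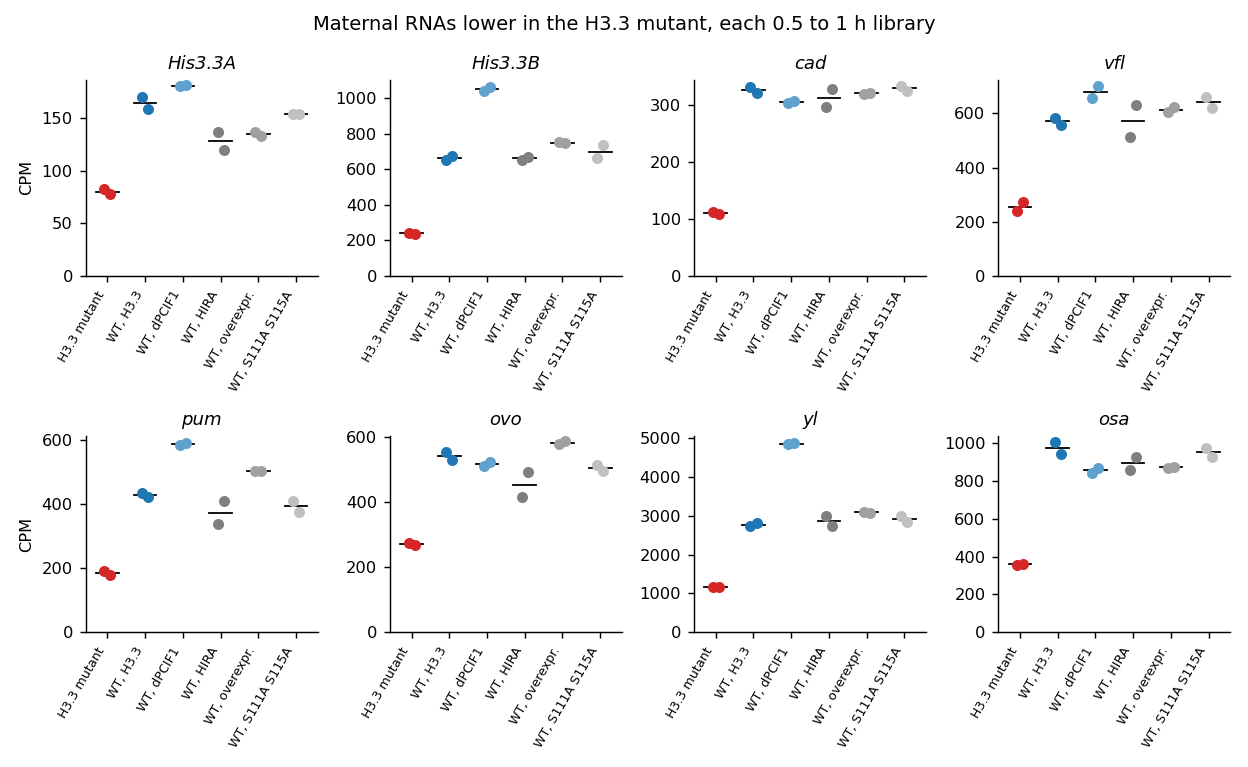
CPM of 8 maternal RNAs in each 0.5 to 1 h library of H3.3 maternal mutant embryos and of the wild types of the H3.3, dPCIF1, HIRA, overexpression and S111A S115A experiments, with a bar at the mean of the 2 libraries of each group. In each panel both mutant libraries lie below all 10 wild-type libraries, for cad at 108 and 113 against 296 to 333 CPM.

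A larger share of the lower maternal genes than of all maternal genes lay on the X chromosome. Of the 237, 97 were X-linked (40.9%, against 17.7% of all maternal genes and 9.09% of the 88 higher ones), and of the 180 below all 20 other libraries 85 were (47.2%). Counted by arm, 8.76% of the maternal genes on X were called lower, against 2.31% to 3.05% on 2L, 2R, 3L and 3R. The median log2 fold change of X-linked maternal genes was -0.060, against -0.027 to -0.0083 on those 4 arms. The HIRA mutant, against its own wild type, gave 2.71% lower on X and 1.71% to 2.64% on the 4 arms. Of all tested genes, lower calls made up 9.62% on X and 3.95% to 5.57% on the 4 arms. Within 0.5, 1 and 2 Mb of His3.3B they made up 9.41%, 9.43% and 9.27% of the genes, near the share of the whole X, and within the same distances of His3.3A 7.62%, 6.38% and 6.38%, against 4.94% over 2L. These shares are descriptions, with no test.

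At 1 to 1.5 h, in separate libraries, 217 of the 237 had a negative log2 fold change in the H3.3 mutant and 68 passed the same threshold as lower (28.7%), while 15 passed it as higher (6.33%). All 15 belonged to the genes boosted later, the class that holds the muscle genes, and 0 to the falling, stable or intermediate genes. Of all maternal genes 1.18% were called lower and 1.02% higher at that stage. The 68 were 91.9% of the 74 maternal genes lower at 1 to 1.5 h. Their median was -0.59 there, against -1.42 at 0.5 to 1 h, the stage at which they were chosen. In the HIRA mutant at 0.5 to 1 h the median of the 237 was -0.18, with 62 called lower (26.2% of the 237 and 44.3% of the 140 maternal genes lower in that mutant) and 2 higher, against 2.24% lower and 2.37% higher of all maternal genes. Of the 62, 22 were among the 32 lower genes boosted later, and 19, 12 and 9 among the falling, stable and intermediate ones. Maternal classes were defined on the wild-type libraries that serve as the control of the HIRA mutant, so they are not independent of that comparison. For cad the HIRA mutant effect was 0.12, and the H3.3 effect minus the HIRA effect was -1.69 (edgeR interaction contrast, adjusted p = 9.67e-10).

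Among the 88 maternal RNAs called higher, 32 were above all 10 wild-type libraries (14.4% of all genes were) and 13 above all 20 other libraries (5.34% of all genes were). The 88 too were chosen on libraries that enter these comparisons, so larger shares are in part built in. Unr, an RNA-binding regulator of translation and dosage compensation, had 505 and 519 CPM against 198 and 203 CPM (log2 fold change 1.35 ± 0.05, adjusted p = 6.92e-12), and 36.1 to 284 CPM in the 10 wild-type libraries. rhi, which encodes the HP1 family protein Rhino of germline piRNA clusters, had 104 and 98.4 CPM against 46.9 and 46.9 CPM (log2 fold change 1.11 ± 0.07, adjusted p = 1.33e-09) and was the only called gene of 14 in the piRNA list. bam, a germline differentiation factor, had 122 and 116 CPM against 47.4 and 46.9 CPM (1.34) and 41.3 to 53.7 CPM in the 10 wild-type libraries. Both mutant libraries lay above all 20 others for these 3 genes. ph-p, a Polycomb group gene, had 27.2 and 23.6 CPM against 11.1 and 9.74 CPM (log2 fold change 1.29 ± 0.09, adjusted p = 1.04e-08), the only called gene of 14 in the Polycomb and heterochromatin list. The structured RNAs RNaseMRP:RNA and RNaseP:RNA were called higher (1.18 and 2.26) but lay within the range of the other wild types. On the common scale RNaseP:RNA averaged 138 CPM in the mutant and 28.5 and 19.1 CPM in the wild types of H3.3 and dPCIF1. It averaged 160, 154 and 98.6 CPM in those of HIRA, overexpression and S111A S115A, whose library format differed. RNaseMRP:RNA was split in the same way, and the part of library format was not tested. Of 12 tested copies of the histone H1 gene 11 were called higher; counts of such near-identical genes are uncertain.

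Several heat shock and cell death genes were called. Of 16 heat shock genes 6 were higher and 1 lower, and of 8 cell death and damage response genes 2 were higher and 0 lower, where 6.20% of all genes were higher and 5.79% lower. Hsp23, a small heat shock protein gene, had 52.9 and 54.2 CPM against 16.8 and 16.3 CPM (log2 fold change 1.70 ± 0.07, adjusted p = 7.82e-12), and Hsp70Aa 147 and 140.4 CPM against 48.96 and 57.9 CPM (log2 fold change 1.42 ± 0.13, adjusted p = 1.51e-07). Hsp68 went the other way, at 3.07 and 3.17 CPM against 10.97 and 11.5 CPM (-1.85). Hsp70Ab, Hsp70Bb and Hsp70Bbb (1.57, 1.74 and 1.10) are near-identical copies, so their counts and that of Hsp70Aa are uncertain, and the call was lost for Hsp70Ab without any of the 4 libraries, for Hsp70Bb without mutant replicate 2 (0.97) or wild-type replicate 1 (1.43), and for Hsp70Bbb without mutant replicate 1 (0.61). The sixth was Hsp67Bc, at 0.662 and 0.634 CPM against 0.214 and 0.234 CPM. Of the cell death genes, the death activators rpr, at 1.01 and 1.16 CPM against 0.285 and 0.335 CPM, and skl, at 1.01 and 0.740 CPM against 0.178 and 0.335 CPM, were called higher, and p53 was at 30.2 and 30.7 CPM against 31.6 and 31.4 CPM (adjusted p = 0.696). None of 14 immune effector genes had enough counts to be tested.

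Zygotic patterning genes were mostly scarce and, where called, higher in the mutant than in its wild type. Over 7 lists of such genes, 69 genes were tested, and 22 were called higher and 0 lower (6.20% and 5.79% of all genes). By adjusted p alone 47 were higher and 2 lower (15.8% and 18.2% of all genes). The same shares of all genes apply to each of the lists below. Among 35 first-wave genes, 4 were called higher. twi, the mesoderm determinant, had 8.82 and 9.23 CPM against 3.03 and 3.11 CPM (log2 fold change 1.55 ± 0.12, adjusted p = 3.95e-08). Kr, a gap gene, had 21.3 and 20.3 CPM against 10.7 and 9.87 CPM (log2 fold change 1.01 ± 0.07, adjusted p = 7.89e-09; 0.98 without mutant replicate 1 and 0.95 without wild-type replicate 2). sog, an inhibitor of BMP signals, had 15.4 and 15.7 CPM against 6.02 and 6.09 CPM (log2 fold change 1.36 ± 0.08, adjusted p = 4.74e-10), and rho, an activator of EGF signals, had 3.48 and 3.35 CPM against 1.03 and 1.44 CPM (log2 fold change 1.46 ± 0.20, adjusted p = 1.77e-05). The groups did not overlap for these 4 genes. Abundant members, which have maternal RNA, did not pass the test: hb at 458 and 463 CPM against 459 and 435 CPM, slam at 409.9 and 396 CPM against 392 and 403 CPM and Sxl at 280.5 and 295 CPM against 322 and 311 CPM.

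Of 18 dorsal-ventral target genes 10 were higher and 0 lower, with a median log2 fold change of 1.12. Besides twi, sog and rho, these held the FGF pathway genes stumps, at 16.9 and 16.1 CPM against 4.60 and 4.25 CPM (log2 fold change 1.90 ± 0.10, adjusted p = 4.43e-10), and htl, at 3.90 and 4.41 CPM against 1.39 and 1.37 CPM (1.59). ind, a neurectoderm gene, was at 1.39 and 1.20 CPM against 0.249 and 0.167 CPM (2.62), and sim, the midline regulator, at 1.25 and 1.44 CPM against 0.214 and 0.201 CPM (2.68). brk, a repressor of BMP targets, was at 8.54 and 8.42 CPM against 3.67 and 3.85 CPM (1.17), tin, the heart determinant, at 1.81 and 1.52 CPM against 0.463 and 0.402 CPM (1.94), and NetA, an axon guidance ligand, at 5.65 and 5.74 CPM against 2.89 and 2.54 CPM (1.07, and 0.98 without wild-type replicate 2). zen, a dorsal homeobox gene, was higher by adjusted p and inside the fold limit, at 12.6 and 11.1 CPM against 6.52 and 7.50 CPM (log2 fold change 0.75 ± 0.10, adjusted p = 1.98e-05). For scw, a BMP ligand, the groups overlapped, at 9.13 and 9.59 CPM against 9.05 and 11.6 CPM.

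Segmentation genes had fewer calls, in the same direction. Of 12 gap genes 3 were higher and 0 lower: Kr, knrl at 2.61 and 3.59 CPM against 0.748 and 0.569 CPM, and slp1 at 5.82 and 7.51 CPM against 3.49 and 2.64 CPM (log2 fold change 1.12, and 0.93 without mutant replicate 2 or wild-type replicate 2). Of 9 pair-rule genes slp1 and prd, at 6.06 and 4.83 CPM against 2.03 and 1.77 CPM, were higher and 0 lower. ftz, at 10.3 and 12.2 CPM against 6.81 and 6.39 CPM, and opa, at 8.85 and 8.07 CPM against 5.06 and 4.52 CPM, were higher by adjusted p and inside the fold limit. run, an X-linked pair-rule gene, went the other way at 3.69 and 4.09 CPM against 6.16 and 6.73 CPM (log2 fold change -0.73 ± 0.12, adjusted p = 9.99e-05), and both mutant libraries lay below all 20 others. The other gene of the 7 lists that was lower by adjusted p was sc, an X-linked sex determination gene (log2 fold change -0.52, adjusted p = 0.00988). Of 9 segment polarity genes 4 were higher (mid, wg, nkd and hh) and 0 lower, with wg, the Wnt ligand, at 4.22 and 4.62 CPM against 1.60 and 1.81 CPM (log2 fold change 1.37 ± 0.15, adjusted p = 2.21e-06).

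Of 8 Hox genes 4 were higher and 0 lower. Antp, which specifies thoracic segments, had 6.13 and 6.80 CPM against 1.39 and 1.71 CPM (log2 fold change 2.06 ± 0.15, adjusted p = 9.47e-09). abd-A, which specifies abdominal segments, had 6.27 and 5.74 CPM against 1.89 and 2.64 CPM (log2 fold change 1.40 ± 0.14, adjusted p = 6.22e-07). Abd-B was at 2.47 and 2.82 CPM against 0.962 and 1.41 CPM (1.15, and 0.91 without wild-type replicate 1), and Dfd at 1.22 and 1.16 CPM against 0.606 and 0.468 CPM (1.15, and 0.97 without wild-type replicate 2). Ubx, at 2.13 and 2.78 CPM against 1.85 and 0.736 CPM, was inside the fold limit (0.94 ± 0.27, adjusted p = 0.0139) and passed it without wild-type replicate 1 (1.73) or mutant replicate 1 (1.12). Of 5 GAGA factor targets named by the study, twi, abd-A and Abd-B were called higher, and kni and Ubx were higher by adjusted p alone. roX1, the noncoding RNA of dosage compensation, was the only called gene of 9 in its list, at 71.2 and 74.01 CPM against 25.4 and 27.8 CPM (log2 fold change 1.45 ± 0.07, adjusted p = 1.13e-10).

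Most of the zygotic levels in the mutant lay within the spread of the wild-type collections, and more of them lay above it than over all genes. Both mutant libraries were above all 10 wild-type libraries for 21 of the 69 genes (30.4%, against 14.4% of all genes) and below them for 1, and for 17 of the 35 first-wave genes they were above and for 1 below. Of the 22 called genes, both mutant libraries lay above all 10 wild-type libraries for 7, and above all 20 other libraries for 0. Set against other controls on the common scale, the 69 genes gave 48 higher and 0 lower against the wild type of the dPCIF1 experiment, 27 and 0 against that of the overexpression experiment, 23 and 2 against that of the HIRA experiment, and 1 and 7 against that of the S111A S115A experiment. Their median log2 fold change ran from 0.015 to 1.60 over these 4 controls and was 0.75 against their own. The summed level of the 18 dorsal-ventral genes was 122.5 and 121.7 CPM in the mutant on that scale, 60.5 and 64.3 CPM in its own wild type, 36.1 and 38.0 CPM in that of the dPCIF1 experiment and 119.3 and 120.8 CPM in that of the S111A S115A experiment. Wild-type embryos labelled 0.5 to 1 h thus differed among themselves by as much in this sum as the mutant differed from its own wild type. The wild type of the overexpression experiment was close to the mutant's own in muscle genes (98.43 and 98 against 95.05 and 92.59 CPM) and Osi6 (44.1 and 46.5 against 40.2 and 43.0 CPM). The labels do not say whether these wild types are separate collections, and this was not tested. Similar results against both are therefore not taken as independent.

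**Figure D4:**
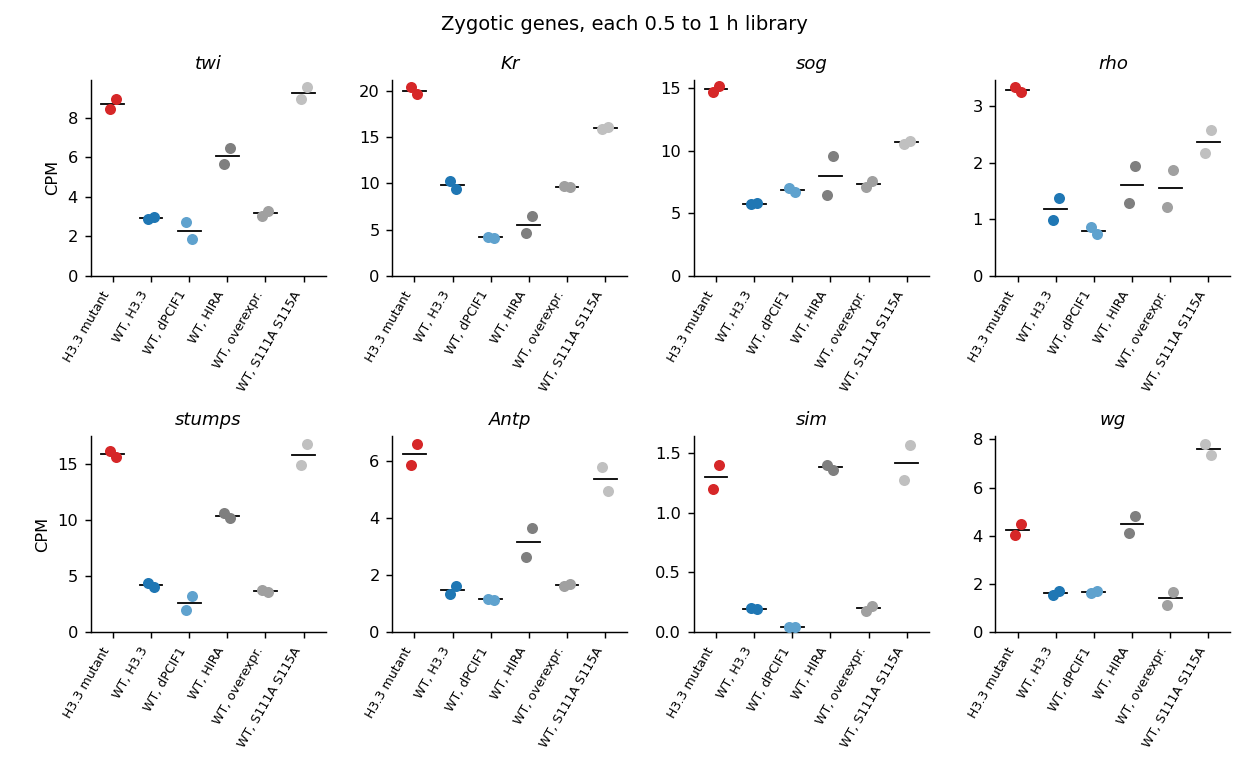
CPM of 8 zygotic genes in each 0.5 to 1 h library of H3.3 maternal mutant embryos and of the 5 wild-type collections, with a bar at the mean of the 2 libraries of each group. The mutant lies above the wild type of its own experiment in each panel, and the wild type of the S111A S115A experiment lies at 8.96 and 9.54 CPM for twi, against 8.44 and 8.96 CPM in the mutant.

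The rising genes with the largest increases were outside the patterning lists. GLaz, a lipocalin gene, had 14.4 and 12.5 CPM against 0.249 and 0.234 CPM (log2 fold change 5.77 ± 0.20, adjusted p = 2.34e-12), and CG42450 had 16.03 and 15.96 CPM against 0.713 and 0.770 CPM (4.42). CG16758 had 5.71 and 5.96 CPM against 0.534 and 0.669 CPM (3.26), ko had 6.31 and 5.78 CPM against 0.606 and 0.803 CPM (3.09), and Blimp-1, a repressor in the ecdysone response, had 7.39 and 8.04 CPM against 1.28 and 1.34 CPM (2.55). For all 5 both mutant libraries lay above the 10 wild-type libraries. Of the 174 rising genes called higher 74 did so (14.4% of all genes did), and 36 lay above all 20 other libraries (5.34% of all genes did). The 174 were chosen on libraries that enter these comparisons, so larger shares are in part built in.

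The rising genes with the largest decreases, CG3108, CG43333, Osi15, Osi6 and dyl, depended on the control. Osi6, of the Osiris family of late embryonic epithelial genes, had 1.15 and 0.811 CPM against 41.98 and 45.04 CPM (log2 fold change -5.46 ± 0.14, adjusted p = 1.06e-13). On the common scale Osi6 was at 44.1 and 46.5 CPM in the wild type of the overexpression experiment and at 0.124 CPM or less in those of the HIRA, dPCIF1 and S111A S115A experiments, against which the mutant was higher. Osi15 and CG43333 had 6 and 5 counts over both mutant libraries and 320 and 337 over both wild-type libraries, ratios of 50.6 (95% counting interval 23.0 to 139) and 63.9 (27.1 to 198). dyl, a zona pellucida domain gene of the cuticle, was at 0.244 and 0 CPM against 5.13 and 5.86 CPM, and CG3108 at 0.0348 and 0.141 CPM against 7.91 and 9.17 CPM. The muscle myosin gene Mhc, at 4.04 and 4.26 CPM against 33.5 and 33.97 CPM, was at 39.7 and 39.1 CPM in the wild type of the overexpression experiment, 116 and 113 CPM in that of HIRA, and 0.277 to 1.20 CPM in those of the dPCIF1 and S111A S115A experiments. Of the 87 rising genes called lower, 7 were below all 10 wild-type libraries (16.3% of all genes were). Rising genes were chosen by a level under 2 CPM in the HIRA wild type, which is among the 10. Few of them can therefore lie below all 10.

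Several of the largest increases were shared with HIRA mutant embryos. CR40469, a noncoding gene, had 56.9 and 58.7 CPM against 0 and 0.0335 CPM, 3298 counts against 1, a ratio of 3479 (95% counting interval 624 to 137465). CG12200 had 34.95 and 32.5 CPM against 0.107 and 0.0669 CPM, a ratio of 406 (174 to 1252). On the common scale CR40469 was at 284 and 288 CPM and CG12200 at 35.6 and 36.7 CPM in HIRA mutant embryos, CG12200 was also at 10.05 and 9.80 CPM in dPCIF1 trap embryos, and in the 10 wild-type libraries they reached 2.29 and 0.184 CPM. kek1, an inhibitor of the EGF receptor, was at 22.4 and 23.6 CPM against 1.57 and 1.47 CPM (log2 fold change 3.92 ± 0.13, adjusted p = 1.20e-12), with 9.90 and 12.5 CPM in HIRA mutant embryos. Idgf3, a chitinase-like growth factor (3.58), CG12184 (5.18), CG34334 (4.36) and Cyp6a9, a cytochrome P450 (4.51), complete the 10 largest with GLaz, CG42450 and fdy. The last was at 8.22 and 8.67 CPM against 0.0713 and 0.0669 CPM, a ratio of 127 (49.3 to 468).

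Among the largest decreases, Oseg5, which encodes a protein of intraflagellar transport, had 0.244 and 0.211 CPM against 12.97 and 13.5 CPM (log2 fold change -5.83 ± 0.18, adjusted p = 1.09e-12). It was at 10.1 to 13.3 CPM in the 10 wild-type libraries and at 0 to 1.15 CPM in the 10 libraries of the 5 other mutant or transgenic groups. Dh44-R2, a neuropeptide receptor, had 2.23 and 2.04 CPM against 96.2 and 91.4 CPM (log2 fold change -5.45 ± 0.09, adjusted p = 1.46e-15), with 1.38 and 1.86 CPM in HIRA mutant embryos and 74.95 to 94.8 CPM in the 10 wild-type libraries. A further gene of the 10, a stable maternal gene whose symbol is not printed here, was at 0.314 and 0.352 CPM against 18.2 and 19.9 CPM (log2 fold change -5.82). Sdic3, of a cluster of near-identical dynein genes with uncertain counts (-5.87), and Hayan, a serine protease with 6 counts against 357 (ratio 56.4, 25.7 to 155), were also below all 10 wild-type libraries, and each was as low in at least 1 library of the other 5 groups. CG4562, a stable maternal gene, was higher at 132 and 124 CPM against 16.8 and 15.9 CPM (log2 fold change 2.97 ± 0.07, adjusted p = 5.86e-14) and at 55.8 to 113 CPM in the other 5 groups, against 11.8 to 22.9 CPM in the wild types. The genotype and the genetic background of the stocks cannot be told apart for these genes, nor for the other called genes of this comparison. Of 5 genes listed as strain markers 3 were called higher and 0 lower, and 0 lay outside the 10 wild-type libraries. Of the other named maternal genes, CG12708 (-4.82), CG30059 (-3.55) and the planar polarity gene dgo (-2.93) were lower, and CG41378 (1.94), CG13822 (1.70), the yolk protein gene Yp2 (1.70) and Idgf2 (1.69) were higher.

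**Figure D5:**
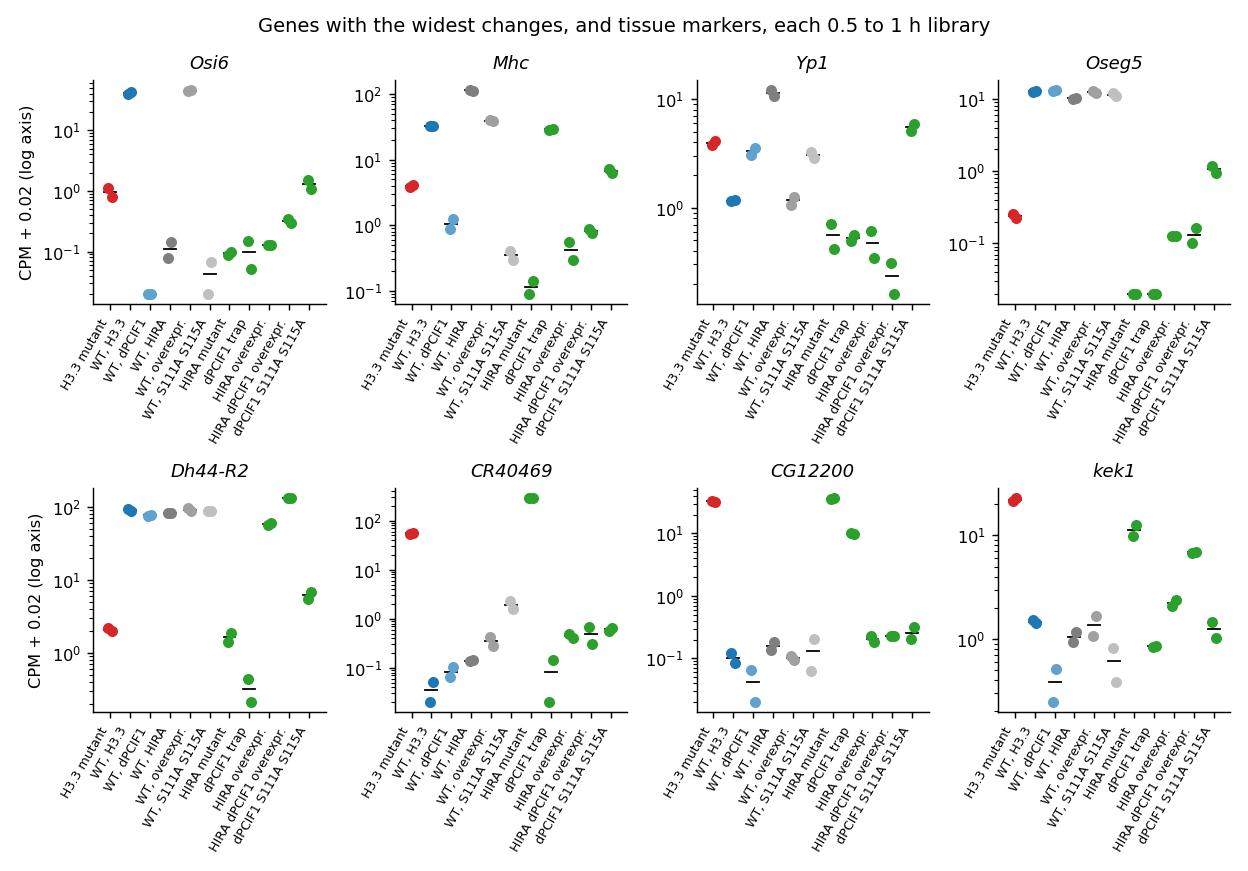
CPM + 0.02 on a log axis of 8 genes in each 0.5 to 1 h library of the H3.3 maternal mutant, the 5 wild-type collections and the 5 other mutant or transgenic groups, with a bar at the mean of the 2 libraries. Osi6 and Mhc differ between wild-type collections, and Oseg5 is at 10.1 to 13.3 CPM in the wild types and at 1.15 CPM or less in all other groups.

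The effect of the mutation differed between 0.5 to 1 h and 1 to 1.5 h for many genes. The earlier effect was the more positive for 278 genes (2.61%) and the more negative for 795 (7.47%). Of the early rising genes, 63 of 295 had the more positive effect at 0.5 to 1 h and 33 the more negative, and of the late rising genes 22 and 122 of 337. twi, called higher at 0.5 to 1 h, had a log2 fold change of -0.23 at 1 to 1.5 h, and Kr had -0.27. Of the 660 genes called higher at 0.5 to 1 h, 247 were also higher at 1 to 1.5 h and 10 were lower, and of the 616 lower ones 134 were also lower and 241 were higher. For comparison, the later stage gave 12.3% higher and 1.87% lower calls over the whole set of genes. At 1 to 1.5 h the mutant libraries held 674 and 768.5 CPM of the 23 yolk and eggshell genes and 256 and 259 CPM of the 9 muscle genes, against 0.922 and 0.938 CPM and 43.4 and 47.2 CPM in their wild type, and the part of these tissues in the difference was not tested.

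The effects also differed from those of the HIRA mutant, which has its own wild type. The H3.3 effect at 0.5 to 1 h was the more positive for 1420 of 11081 genes (12.8%) and the more negative for 389 (3.51%). Rising genes showed a median change of -0.96 on the log2 scale in the HIRA mutant and of 0.59 in the H3.3 mutant, but they were defined on the wild-type libraries that serve as the control of the HIRA mutant, which held 340.5 and 340.8 CPM of the muscle genes. Of the genes called higher in the H3.3 mutant 92 were called higher in the HIRA mutant too, 13.9% of the former list and 26.7% of the latter, and of those called lower 288 were, 46.8% and 15.6%. In the opposite direction, 189 of the 660 genes higher in the H3.3 mutant were called lower in the HIRA mutant, and 7 of the 616 lower ones were called higher. Over all genes tested in both, 3.24% were called higher and 17.4% lower in the HIRA mutant.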

How the data were processed

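RNA of 0.5 to 1 h embryos was compared between H3.3 maternal mutant and matched wild type, 2 libraries each, as grouped by the labels. The deposited values are expected counts per gene, for which the submitters' processing notes name Trimmomatic 0.39, STAR 2.7.10a and RSEM 1.3.1 and the build dm6; DESeq2 1.40.2 is named too. Libraries were rRNA-depleted and strand-specific per the methods of the study, while the labels name polyA RNA. TPM values, also deposited by the authors, served only for levels per length.

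Expected counts were rounded to whole numbers. The 12 libraries of the H3.3 experiment (6 groups) were fitted with edgeR 4.0.16 in R 4.3.3: filterByExpr with a minimum of 10 counts and a total of 15, TMM factors, quasi-likelihood test, Benjamini-Hochberg adjustment over all tested genes. Calls needed an adjusted p below 0.05 with a log2 change beyond 1 in size. SE is the log2 fold change over the square root of F. Differences between effects were interaction contrasts, with 24 libraries for HIRA. A common scale was set by TMM over 22 libraries. Rising genes gain over 2 on the log2 scale and stable genes stay within 0.5. Of 16680 genes, 16451 were matched to RefSeq by accession and 43 by symbol. Counting intervals are exact and cover counting error only. The scripts were tested on simulated data.

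Named are the H3.3 genes, the 10 largest and 10 smallest changes, 5 and 5 among rising and 3 and 3 among falling and stable maternal genes (called, a group mean of at least 5 CPM, no overlap), and called and up to 3 abundant other genes of each list. Tissue markers are mostly given as sums and strain markers as counts only. Of the 10 smallest changes, 1 gene is given without its symbol. Members and gene lists were chosen with earlier results of these data known. Alternatives were other normalizations, no filter, DESeq2 1.42.0, the 4 libraries alone, a replicate block, leaving out each library, other wild types, no fold limit and other list limits.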

Additional observations from a re-analysis of the deposited data

Results flagged for a closer look

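The effect of the H3.3 mutation differed between stages: 278 genes had the more positive and 795 the more negative effect at 0.5 to 1 h than at 1 to 1.5 h (edgeR interaction contrasts). It also differed from that of the HIRA mutation, with 1420 genes more positive and 389 more negative in the H3.3 mutant. The log2 effect at 0.5 to 1 h minus that at 1 to 1.5 h was -0.62 for His3.3B, -0.78 for cad, -0.71 for ovo, -0.80 for pum, -0.98 for vfl and 0.80 for grh. The H3.3 effect minus the HIRA effect was -1.30 for His3.3A, -1.68 for His3.3B, -1.69 for cad, -1.41 for ovo, -1.90 for pum, -1.87 for vfl and 1.15 for grh. The H3.3 and HIRA comparisons differ in control collection and library format, and the part of these in the differences was not tested.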

How the results depend on the processing

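Other control collections and the fold limit each moved several counts by over 1.5 times. Against the wild type of the dPCIF1 experiment 1242 genes were higher, and against that of HIRA 1299 were lower. Rising genes gave 374 higher and 8 lower against the dPCIF1 control, and 39 and 16 lower against the S111A S115A control and the 4 other controls together. Falling genes gave 26 and 29 higher against the HIRA and dPCIF1 controls and 172 lower against the latter. Stable genes gave 35, 21, 7 and 6 higher against the HIRA, dPCIF1, S111A S115A and 4 joint controls, and 117 lower against the dPCIF1 control. The median of the rising genes was 0.19, 1.87, 0.35, 0.38 and 0.78 against the HIRA, dPCIF1, overexpression, S111A S115A and joint controls. That of the falling genes was -0.16, -0.075 and -0.078 against the dPCIF1, overexpression and joint controls. That of the stable genes was 0.032, -0.052, 0.020, -0.031 and -0.0054 against the HIRA, dPCIF1, overexpression, S111A S115A and joint controls.

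With no fold limit 1678 genes were higher and 1934 lower, among them 233 and 640 falling and 213 and 369 stable genes. Limited to those with 20 CPM or more at 2.5 to 3 h, rising genes gave 66 higher, 14 lower and a median of 1.01. Genes of the same class in both wild-type courses gave 9 rising lower (median 0.84), 8 falling higher and 1 stable higher. The second of these courses holds the control libraries of this comparison, so these values are in part built in. With library totals, DESeq2 size factors and the DESeq2 test the median of the rising genes was 0.64, 0.64 and 0.65, of the falling genes 0.0058, -0.0037 and -0.0037, and of the stable genes 0.042, 0.033 and 0.033. The 4 libraries alone gave 0.54 for rising and -0.0019 for stable genes, TMM on stable genes -0.0061 and no filter -0.020 for stable genes. Leaving out each library in turn gave medians of 0.57 to 0.60 for rising, -0.07 to -0.04 for falling and -0.022 to -0.0091 for stable genes.

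Counted after the data were seen, called genes outside all 10 wild-type libraries were 277 higher and 331 lower, and outside all 20 others 126 and 213. For rising genes these were 74 and 7, then 36 and 2, for falling genes 9 and 6 higher, and for stable genes 3 and 2 higher. Called or not, 14.4% of all genes lay above and 16.3% below the 10, and 5.34% above and 9.10% below the 20. Calls and classes were both set on libraries among the 10, so these counts are in part fixed by the choice.

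Directions of named genes reversed only against other controls, among the alternatives run. Against the HIRA control the log2 fold changes were 0.67 for CG3108, 4.43 for Osi15, 3.39 for Osi6, 2.48 for dyl, -1.64 for Yp2, -1.54 for Yp1, -0.21 for RNaseP:RNA, -0.28 for RNaseMRP:RNA, -1.01 for hh, -0.060 for wg, -0.39 for Dfd, -0.089 for sim, -1.48 for Hsp70Ab, -4.74 for Hsp70Bb and -3.05 for Hsp70Bbb. Against the dPCIF1 control they were 1.75 for CG3108, 4.18 for CG43333, 2.00 for Osi15, 7.59 for Osi6, 4.64 for dyl and 1.94 for Mhc. Against the overexpression control they were -0.16 for RNaseP:RNA and -0.14 for RNaseMRP:RNA. Against the S111A S115A control they were 0.86 for CG3108, 4.43 for Osi15, 5.14 for Osi6, 1.33 for dyl, 3.57 for Mhc, -0.087 for twi, -0.25 for slp1, -1.33 for hh, -0.28 for nkd, -0.83 for wg, -0.30 for NetA, -0.22 for htl, -0.50 for ind, -0.12 for sim, -0.57 for tin, -0.34 for roX1 and -0.41 for RNaseMRP:RNA. Against the joint controls they were 1.32 for Osi15, 2.64 for Osi6, 0.65 for dyl, -0.44 for Hsp70Bb and -0.085 for RNaseMRP:RNA. The cause was not tested.

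Replicate numbers do not pair the libraries by the labels, and correlations of same-numbered deviations ran from -0.19 to 0.29. With the replicate block 659 genes were higher and 606 lower, and with the 2 mutant numbers crossed, tried after a correlation of -0.13 between the groups compared was seen, 643 and 588. With 2 libraries a group, and scarce zygotic RNAs near 1 CPM, small changes of these genes are not detectable.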
